A study of Mus musculus with 14 samples.

Results

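The C/EBP family loci are the genes Cebpa, Cebpb, Cebpd, Cebpe and Cebpg of the mouse, taken here as 5 of 21774 protein-coding genes. A locus was the RefSeq span of the gene on build GRCm38 with 50 kb added on each side, and every deposited transcription factor (TF) peak that overlapped it was counted. The 5 loci held 131 of 158488 peaks. Merged wherever they overlapped by at least 1 bp, the peaks of all lists gave 117293 regions, of which 93 lay in these loci. The loci of Cebpa and Cebpg are neighbours on chromosome 7 and overlap, so that 2 macrophage C/EBPβ peaks and 5 macrophage PU.1 peaks were counted at both.

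The peaks came from chromatin immunoprecipitation and sequencing (ChIP-seq) in 5 populations that were differentiated from 129-strain mouse embryonic stem cells carrying a GFP reporter of Brachyury, a mesoderm gene. Mesoderm (MES) was Bry.GFP+ and FLK1-, hemangioblast (HB) was Bry.GFP+ and FLK1+, and hemogenic endothelium (HE) was Bry.GFP+, Tie2+, Ckit+ and CD41-. Hematopoietic progenitors (HP) were CD41+ and macrophages (MAC) were CD11b+. Each of the 14 lists came from 1 antibody at 1 stage, against C/EBPβ at all 5 stages, ELK4 in MES, GATA2 in HB and HP, GATA1 and GFI1B in HP, and RUNX1 and PU.1 (encoded by Spi1) in HP and MAC. With 1 list per factor and stage there was no replicate check, and no test of any difference was possible. The cells were made in culture, and the HE immunoprecipitation used added carrier material. The files hold positions only, so the depth behind each peak is unknown, and the identity of the sorted cells could not be checked against markers.

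C/EBP proteins are basic leucine zipper TFs that bind DNA as dimers, with one another or with related zipper proteins, at sites built from 2 inverted copies of a short sequence. They are known for their part in the making of granulocytes, monocytes and macrophages. C/EBPα directs progenitors toward granulocytes and monocytes, C/EBPβ acts in macrophages and in the inflammatory response, and C/EBPδ is induced in the acute-phase response. C/EBPε acts late in granulocyte maturation, and C/EBPγ lacks a transactivation domain and serves as a dimer partner.

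The sequences shown first are those of the region that most lists shared, next to Cebpe, of the sites with a consensus match under C/EBPβ peaks at Cebpb itself, and of a C/EBPβ site shared by HP and MAC in the Cebpe locus. All are from the GRCm38 RefSeq genome, 5′ to 3′ on the strand of the gene. Capitals in the Cebpe region mark AGATAA, the GATA consensus searched, and TTGCNNAA, the C/EBP consensus searched, on either strand. In the 30-base sites they mark TTGCNNAA on either strand. In 300-base windows, TTGCNNAA occurred in 10.8% of 32851 RefSeq promoters and in 23.3% of all 117293 merged regions, and AGATAA in 11.2% and 13.2%. The Cebpe region lies at chr14:54705896-54706195 on the minus strand, in intergenic sequence. The Cebpb sites lie on the plus strand at chr2:167687864-167687893, chr2:167710046-167710075, chr2:167710740-167710769, chr2:167715227-167715256 and chr2:167717468-167717497, all intergenic, and are named by the distance of the peak centre from the transcription start site (TSS) in bp. The shared Cebpe locus site lies at chr14:54754677-54754706 on the minus strand, within an exon of the neighbouring gene Slc7a8.
Cebpe downstream region: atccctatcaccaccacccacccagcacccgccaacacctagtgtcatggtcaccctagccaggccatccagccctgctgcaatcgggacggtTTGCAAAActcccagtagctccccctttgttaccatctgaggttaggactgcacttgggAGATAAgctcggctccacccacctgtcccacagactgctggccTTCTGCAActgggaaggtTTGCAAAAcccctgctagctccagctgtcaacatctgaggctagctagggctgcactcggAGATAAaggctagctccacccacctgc
Cebpb site at -1036: aacaccgaaggTTGAGCAAcaccccgccag
Cebpb site at 21126: tgtattcatccTTGTGCAAtgttggggtgg
Cebpb site at 21842: cgctggggtggTTGCGAAAgccctttctct
Cebpb site at 26347: gccttccccaaTTGCCAAAgctcccatcag
Cebpb site at 28566: tgtgacacagcTTGGGCAAtcagctgcatt
Cebpe locus site in Slc7a8: cttgggcttgcTTGTGCAAcctcggccgct

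Peaks from macrophages, for PU.1 as for C/EBPβ, lay at each of the 5 loci, as they did at most coding genes. Progenitor peaks were not confined to Cebpe, but only Cebpe had a peak in all 6 HP lists within 50 kb. C/EBPβ in MAC had 9 peaks at Cebpa, 14 at Cebpb, 5 at Cebpd, 8 at Cebpe and 10 at Cebpg. PU.1 in MAC had 17, 21, 8, 17 and 13 peaks at the same genes in the same order. Such peaks are common, since 81.2% of coding genes had a MAC C/EBPβ peak and 84.1% a MAC PU.1 peak in a window of the same kind, and presence alone sets no member apart. PU.1 in HP was also found at all 5 genes, with 1 peak at Cebpa, 2 at Cebpb, 1 at Cebpd, 3 at Cebpe and 1 at Cebpg, where 53.0% of coding genes had one. C/EBPβ in HP had 2 peaks at Cebpe and 1 at Cebpg and none at the other members, against 23.4% of coding genes.

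Within 50 kb, the remaining HP factors were found at Cebpe alone among the members, with 1 peak each. Beyond this window, GATA1 and RUNX1 in HP had peaks 87248 and 87216 bp downstream of the Cebpg TSS, in an intron of Pepd, whose own TSS was nearer. With 100 kb on each side, GATA1 in HP had a peak at 5.20% of coding genes and RUNX1 in HP at 19.4%. With 50 kb, GATA1 in HP had a peak at 3.13% of coding genes, GATA2 at 5.69%, GFI1B at 19.0% and RUNX1 at 12.4%. C/EBPβ in MES had 1 peak, at Cebpg, where 10.5% of coding genes had one. Within 50 kb, no member had a peak of C/EBPβ in HB, of C/EBPβ in HE, of GATA2 in HB, of ELK4 in MES or of RUNX1 in MAC. These lists reached 6.84%, 1.24%, 0.565%, 7.67% and 0.831% of coding genes, so that an empty locus was the usual outcome in each. With 100 kb, ELK4 in MES had peaks at -56829 bp from the Cebpb TSS and 94059 bp from the Cebpe TSS. These lay 66 bp from the TSS of Ube2v1 and 120 bp from that of Psmb5. ELK4 in MES had a peak at 11.6% of coding genes with this wider window. The authors chose the calling threshold of each list separately, and counts are therefore not compared between lists as amounts of binding.

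**Figure D1:**
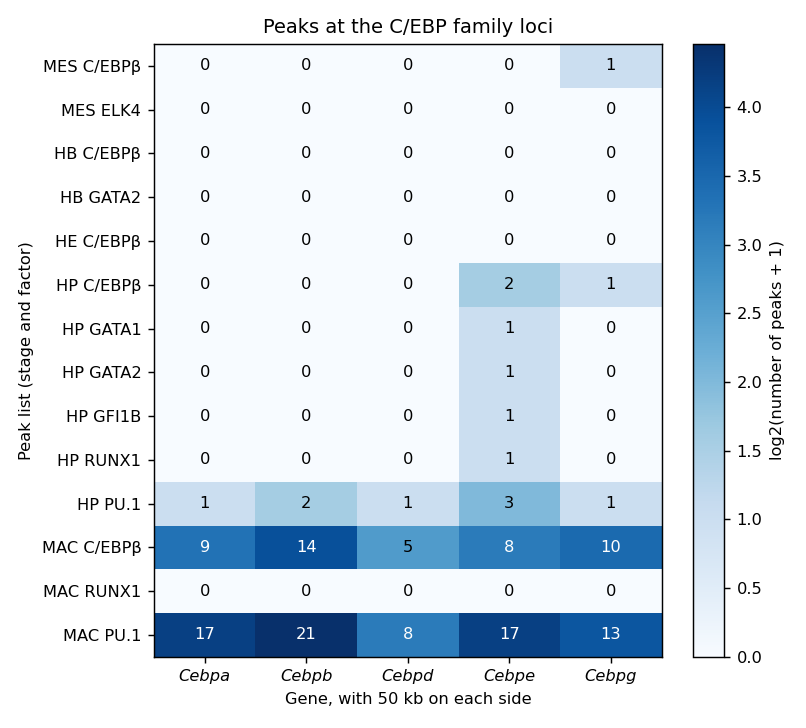
Number of peaks of each list (rows) in each gene extended by 50 kb on each side (columns), shaded on a log2 scale of the count plus 1. MAC PU.1 and MAC C/EBPβ fill all 5 columns, with the highest counts, 21 and 14, at Cebpb, and the HP rows of GATA1, GATA2, GFI1B and RUNX1 are filled at Cebpe alone.

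Cebpe had peaks in 8 lists, Cebpg in 5, and Cebpa, Cebpb and Cebpd in 3 each. The median coding gene had peaks in 3 lists, and 1.93% of coding genes had as many as Cebpe or more. All 6 HP lists had a peak at Cebpe, as at 75 coding genes (0.344%) with this window. These included 4 neighbours of Cebpe, namely Acin1, 1700123O20Rik, Gm29776 and Slc7a8, whose windows overlap its own, so that the pattern is one of the locus and not of Cebpe alone. With 10 kb on each side Cebpe had all 6 HP lists, as did 22 coding genes in all (0.101%), whereas Cebpb had none of the 6, Cebpa and Cebpd had 1 and Cebpg had 2. At least 1 of the lists was found at 9104 of the 21774 coding genes (41.8%) with this window and at least 2 at 3055 of them. With 100 kb, 206 coding genes (0.946%) had all 6, Cebpe among them, while Cebpg had 4, a number reached by 10.3% of coding genes, Cebpa and Cebpb had 2 (49.7%) and Cebpd had 1 (73.9%).

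The locus of Cebpb is treated first among the members because it encodes one of the factors mapped. It is a gene of 1 exon at chr2:167688915-167690432 on the plus strand. C/EBPβ had no peak in its 50 kb window in MES, HB, HE or HP and 14 in MAC. A count of 14 or more was found at 5.14% of coding genes, whose median was 5. Long genes have wider windows, and among the 7931 coding genes no longer than the longest member, Cebpg (10145 bp), the median was 3 and 1.13% had at least 14.

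The 14 MAC C/EBPβ peaks lay on both sides of Cebpb. Relative to the TSS, the upstream centres were at -47382, -39409, -32180, -26960 and -1036 bp. The centre at 1223 bp fell within the exon of Cebpb, and those further downstream were at 9196, 11765, 21126, 21842, 26347, 28566, 35058 and 46167 bp. The peaks at -39409 and -32180 bp lie in introns of Tmem189, a neighbouring gene, and 8 of the 14 lie downstream of the exon in sequence with no coding gene. Within 10 kb of the gene the count was 3.

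Of the 14 peaks at Cebpb, 9 overlapped a MAC PU.1 peak and 5 held TTGCNNAA. Over the whole MAC C/EBPβ list, 42.5% overlapped a MAC PU.1 peak and 41.9% held TTGCNNAA. In the peak at -1036 bp the match was TTGAGCAA, 1 bp from the peak centre. In the peak at 28566 bp it was TTGGGCAA, also 1 bp from the centre, and at 21842 bp it was TTGCGAAA at 3 bp. The matches under the peaks at 21126 bp (TTGTGCAA) and 26347 bp (TTGCCAAA) were 19 and 21 bp from the centres. All 5 matches therefore lay close to the middle of peaks that are 400 bp wide. These distances were not compared with those over the whole list. The exonic peak at 1223 bp had no TTGCNNAA and held TGATGCAA, a match to TGATGNAA, 26 bp from its centre and TGACGCAA, a match to TGACGNAA, 21 bp from it. The peak at -47382 bp also held a match to TGATGNAA, 32 bp from its centre. TGANTCA, the AP-1 string, was held by 5 of the 14 peaks, as many as held TTGCNNAA. These were the peaks at -39409, -32180, 9196, 26347 and 35058 bp, with matches 111, 23, 101, 102 and 17 bp from the centres.

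No deposited peak of any list covered the Cebpb promoter window from 250 bases before to 50 after the RefSeq start, although MAC C/EBPβ at -1036 bp and MAC PU.1 at -650 and 368 bp lay on either side of it. The window is shown because the own gene of the factor is in question, at chr2:167688665-167688964 on the plus strand, from the RefSeq promoter table. Capitals mark TGACGC, a string searched for CREB and ATF proteins that is not a full site of theirs, on either strand. These letters were looked for after the sequence had been read, whereas TGACGNAA and TTGCNNAA, searched before, had no match. TGACGC occurred in 7.40% of RefSeq promoters.
Cebpb promoter: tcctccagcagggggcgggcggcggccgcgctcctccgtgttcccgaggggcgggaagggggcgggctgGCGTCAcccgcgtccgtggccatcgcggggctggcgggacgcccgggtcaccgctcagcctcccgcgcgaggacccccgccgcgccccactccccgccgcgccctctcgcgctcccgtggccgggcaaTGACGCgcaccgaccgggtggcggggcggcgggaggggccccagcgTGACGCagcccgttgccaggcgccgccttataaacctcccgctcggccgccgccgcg

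PU.1 in HP had 2 peaks at Cebpb, at 12773 and 24170 bp. In MAC, PU.1 peaks were found at the same places, with centres 0 and 41 bp away, among 21 in the locus. Neither place held a C/EBPβ peak in any list. Both are shown, at chr2:167701539-167701838 and chr2:167712936-167713235 on the plus strand, in intergenic sequence. Capitals mark GAGGAAG, the PU.1 string searched first, and GGAAGT, the core of many ETS factor sites, which was added after the data had been seen, on either strand. GAGGAAG matched in the second window, at bases 205 to 211, and had no match in the first, where the capitals mark GGAAGT.
Cebpb downstream PU.1 peak: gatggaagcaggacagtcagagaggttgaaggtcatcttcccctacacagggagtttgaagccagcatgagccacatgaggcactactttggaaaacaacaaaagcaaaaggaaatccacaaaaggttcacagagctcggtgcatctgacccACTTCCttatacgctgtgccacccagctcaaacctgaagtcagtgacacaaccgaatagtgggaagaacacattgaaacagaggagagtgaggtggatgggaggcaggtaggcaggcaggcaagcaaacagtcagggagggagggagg
Cebpb second downstream PU.1 peak: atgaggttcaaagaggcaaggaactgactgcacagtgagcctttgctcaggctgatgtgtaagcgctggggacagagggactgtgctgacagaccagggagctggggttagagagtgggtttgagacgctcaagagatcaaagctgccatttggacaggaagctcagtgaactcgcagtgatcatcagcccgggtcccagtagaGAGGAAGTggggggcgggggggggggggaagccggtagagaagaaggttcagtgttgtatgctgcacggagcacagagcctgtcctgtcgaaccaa

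Just beyond the Cebpb window the picture differed in HP. C/EBPβ in HP had peaks at 65226 and 71213 bp downstream of the TSS, in intergenic sequence for which Cebpb was the nearest coding gene. PU.1 in HP had peaks at 65146 and 71381 bp, 80 and 168 bp from these, and further peaks at 52091 and 84151 bp. The absence of HP C/EBPβ from Cebpb thus holds for 50 kb and not for 100 kb. A peak of this list was common at the wider setting, with 34.4% of coding genes having one.

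**Figure D2:**
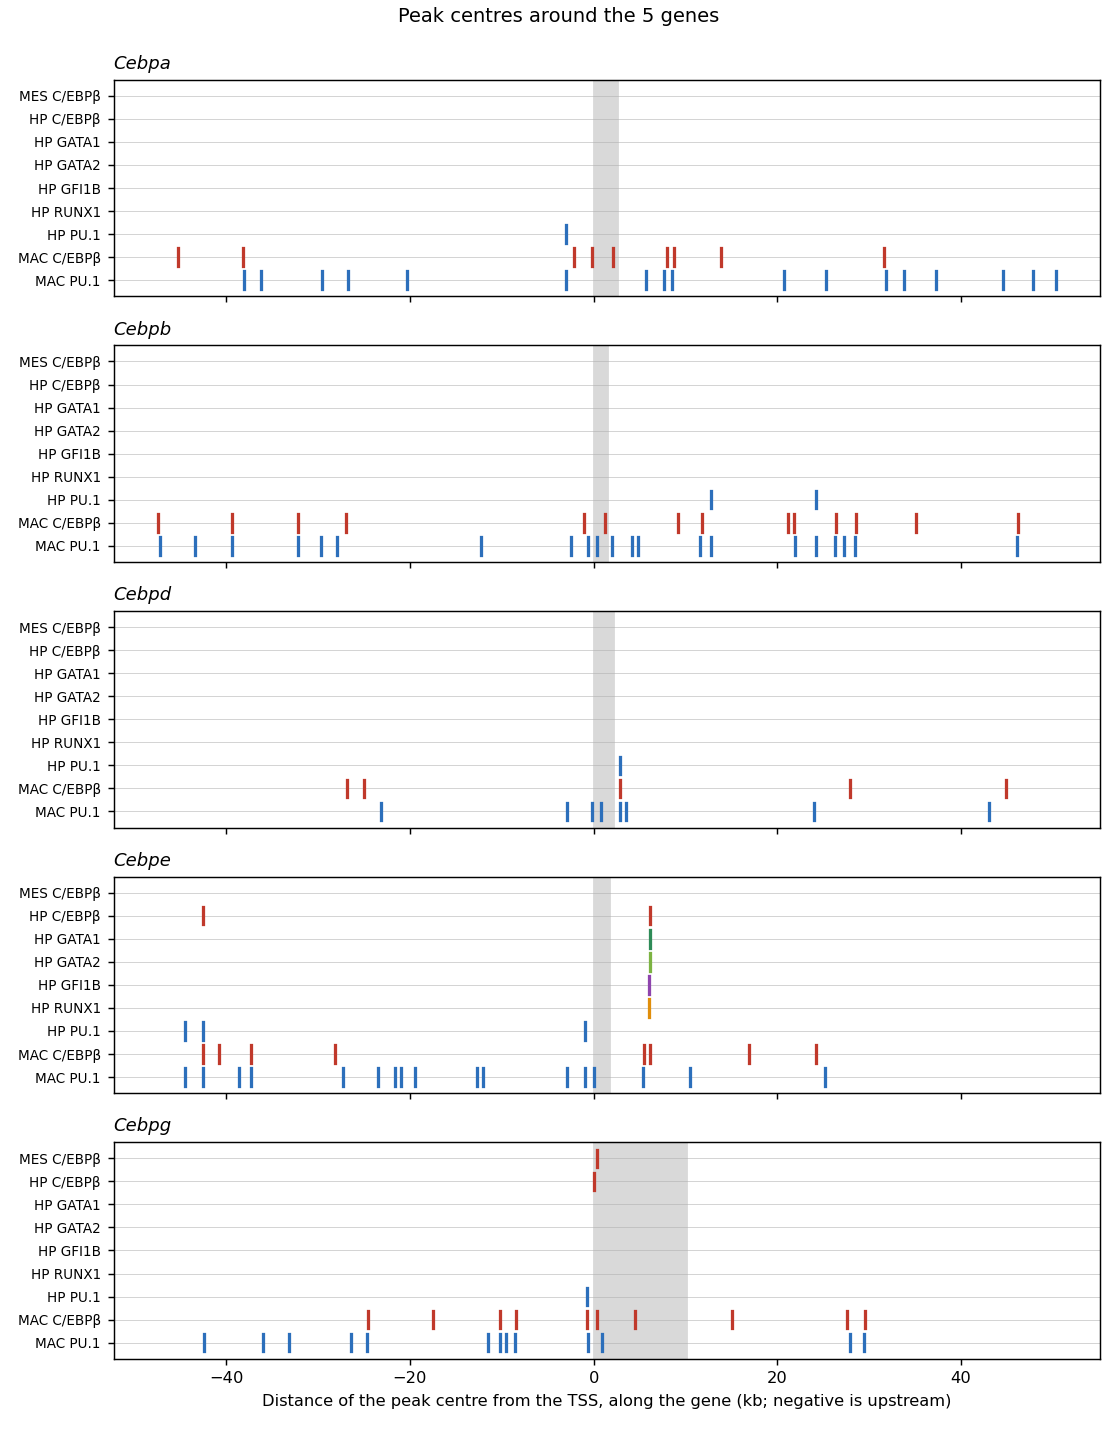
Centres of all peaks at the 5 genes by distance from the TSS (kb, negative is upstream), with 1 row per list that had a peak at any of them and the gene span in grey. The 14 MAC C/EBPβ peaks at Cebpb spread from -47382 to 46167 bp, and 5 HP factors line up about 6 kb downstream of the Cebpe TSS.

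Cebpe has 2 exons at chr14:54710363-54712174 on the minus strand. The region shared by most lists lay downstream of it, at chr14:54705792-54706305, and was 514 bp wide with its centre 6126 bp from the TSS. It held peaks of C/EBPβ, GATA1, GATA2, GFI1B and RUNX1 in HP and of C/EBPβ in MAC. The centres were at 6183 bp for HP C/EBPβ, 6165 bp for GATA1, 6159 bp for GATA2, and 6069 bp for both GFI1B and RUNX1. The MAC C/EBPβ centre was at 6159 bp, 24 bp from that in HP. The 6 centres thus lay within 114 bp of each other.

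Neither PU.1 list had a peak in this region, although PU.1 had the longest list at both stages. Over the genome, 8 merged regions held peaks of these 5 HP factors. Of the 8, 4 lacked HP PU.1 and 1 lacked MAC PU.1, and that at Cebpe was the 1 that lacked both. The regions with HP PU.1 stood in 10, 11, 11 and 14 of the 14 lists, thus under most antibodies. Those without it stood in 6 or 7. Regions found in nearly all lists were not filtered out, so the 8 are a poor measure of how unusual the lack of PU.1 is. The neighbouring region at chr14:54706539-54707037 held MAC C/EBPβ at 5436 bp and MAC PU.1 at 5337 bp.

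In the Cebpe sequence printed above, TTGCNNAA matched at bases 94 to 101, 196 to 203 and 214 to 221, counted from the 5′ end, and AGATAA matched at bases 153 to 158 and 274 to 279. The middle C/EBP match was 5 bp from the centre of the HP C/EBPβ peak and 19 bp from that of the MAC C/EBPβ peak. TGTGGTT, searched for RUNX1, and AATCNNNGC, searched for GFI1B, had no match in the window, and occurred in 8.38% and 10.2% of all regions.

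**Figure D3:**
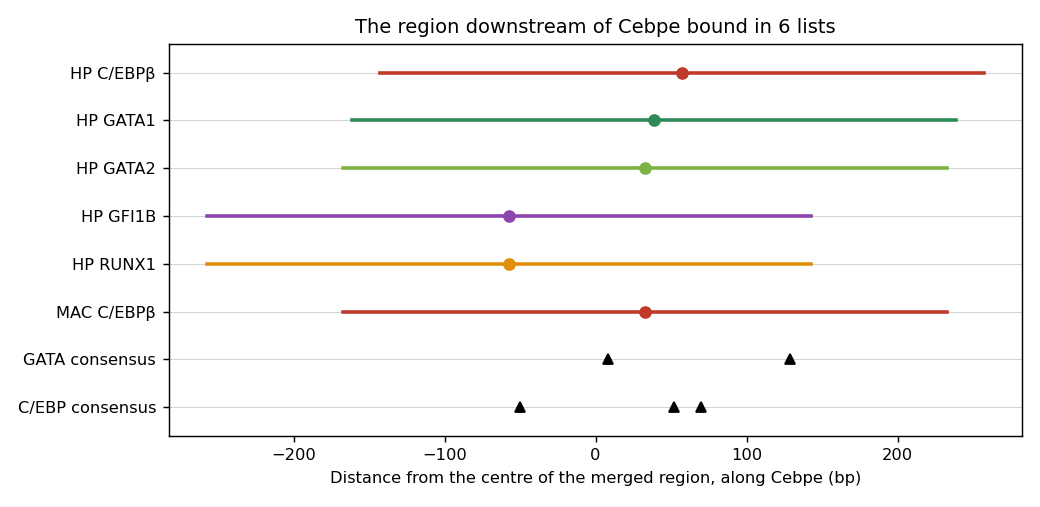
Peaks of 400 bp (lines) with their centres (points) in the region downstream of Cebpe, and the consensus matches (triangles), by distance in bp from the centre of the merged region along the gene. GATA1, GATA2 and both C/EBPβ centres lie within 24 bp of each other, and GFI1B and RUNX1 share 1 centre on the side of the gene.

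A second region of the Cebpe locus was bound in 4 lists, by both C/EBPβ and PU.1 in HP and MAC. It lay at chr14:54754504-54754928, with its centre at -42542 bp, and overlapped an exon of Slc7a8, an amino acid transporter gene whose own TSS was nearer, at 3704 bp. The centres were at -42529 bp for HP C/EBPβ, -42534 bp for MAC C/EBPβ, -42554 bp for HP PU.1 and -42546 bp for MAC PU.1. The C/EBP match in it, printed above, was 12 bp from the HP C/EBPβ centre. PU.1 in HP was also found at -909 and -44460 bp, each with a MAC PU.1 peak 6 and 14 bp away. At the Cebpe TSS itself, MAC PU.1 had a peak centred at -12 bp, and C/EBPβ had none there. Most other peaks upstream of Cebpe fell within Slc7a8 and cannot be assigned to either gene from position alone.

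Cebpg has 2 exons at chr7:35046422-35056566 on the minus strand, and its start was the place where C/EBPβ was found at the earliest stage. The region at chr7:35055987-35056693 held C/EBPβ in MES, HP and MAC, centred at 350, 73 and 380 bp from the TSS. It was 1 of 550 regions with C/EBPβ in these 3 stages, and, as at 232 of them, C/EBPβ was in neither the HB nor the HE list. The HP centre was 277 bp from the MES centre and 307 bp from the MAC centre. None of the 3 peaks held TTGCNNAA. The MES and MAC peaks held TTGCATCA, a match on the other strand to TGATGNAA, the string searched for dimers of C/EBP and ATF proteins, at chr7:35056193-35056200. It was 20 bp from the MES centre and 10 bp from the MAC centre, and lay outside the HP peak. TGATGNAA occurred in 10.2% of all MES C/EBPβ peaks and 12.8% of all MAC C/EBPβ peaks. A second coding gene, Gm45095, lies across this start on the opposite strand, so that these peaks can belong to either.

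The next region upstream of Cebpg, at chr7:35057020-35057485, held HP PU.1 at -685 bp, MAC PU.1 at -653 bp and MAC C/EBPβ at -719 bp. The C/EBPβ peak there held TTTAGCAA, 8 bp from its centre. Cebpg had 10 MAC C/EBPβ peaks within 50 kb, and 15.8% of coding genes had as many or more, or 7.86% of those no longer than Cebpg. Its 13 MAC PU.1 peaks were reached by 25.1% of coding genes and by 17.1% of the shorter ones.

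Cebpa has 1 exon at chr7:35119293-35121928 on the plus strand, and was the 1 member with a MAC C/EBPβ peak over its promoter with no PU.1 peak there. This peak was centred at -172 bp and covered 279 of the 300 bases of the RefSeq promoter window. The window is shown for this reason, at chr7:35119043-35119342 on the plus strand. It holds no TTGCNNAA. Capitals mark TTGCGC, the opening letters of TTGCGCAA, which is a form of TTGCNNAA. They were looked for after the sequence had been read, lay at -183 bp and occurred in 6.49% of RefSeq promoters.
Cebpa promoter: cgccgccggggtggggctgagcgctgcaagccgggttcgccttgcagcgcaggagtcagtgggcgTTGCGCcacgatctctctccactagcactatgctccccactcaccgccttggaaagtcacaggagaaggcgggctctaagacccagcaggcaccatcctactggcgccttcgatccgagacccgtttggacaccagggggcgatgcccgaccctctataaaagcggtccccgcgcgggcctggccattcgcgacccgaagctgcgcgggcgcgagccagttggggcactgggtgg

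Further MAC C/EBPβ peaks close to Cebpa were at -2083 bp and, within the exon, at 2161 bp. The exonic peak held 3 matches of TTGCNNAA, the nearest 9 bp from its centre, and the peak at -2083 bp held 1, at 153 bp. In the other Cebpa peaks with a match, at 8716, 13858 and 31619 bp, the match was 52, 8 and 93 bp from the centre. PU.1 was found upstream in both HP, at -2979 bp, and MAC, at -2967 bp.

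Cebpd has 1 exon at chr16:15887286-15889545 on the plus strand and had the fewest peaks, 14 in 12 regions. Its 5 MAC C/EBPβ peaks equalled the median of all coding genes and lay above the median of 3 among the 7931 genes no longer than Cebpg, 36.4% of which had at least 5. Its 8 MAC PU.1 peaks were reached by 49.5% of coding genes and by 37.9% of the shorter ones. One region stood in 3 lists. At chr16:15889914-15890332, just past the end of Cebpd and in an intron of Spidr on the opposite strand, HP PU.1 was centred at 2827 bp, MAC C/EBPβ at 2838 bp and MAC PU.1 at 2846 bp. The C/EBPβ peak held no TTGCNNAA. The window is shown as the 1 place at Cebpd that was bound before the macrophage stage, at chr16:15889964-15890263 on the plus strand, with GAGGAAG and GGAAGT in capitals on either strand. GAGGAAG matched once, at bases 105 to 111, and GGAAGT matched 4 times. MAC PU.1 was also centred at -197 bp, over the Cebpd promoter.
Cebpd downstream region: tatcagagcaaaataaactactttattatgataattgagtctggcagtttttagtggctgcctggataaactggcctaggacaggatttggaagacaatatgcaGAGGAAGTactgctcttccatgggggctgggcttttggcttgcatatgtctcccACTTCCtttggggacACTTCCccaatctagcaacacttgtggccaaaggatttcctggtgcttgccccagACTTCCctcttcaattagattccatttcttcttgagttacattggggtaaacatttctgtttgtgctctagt

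Over the members, the counts of macrophage peaks had the order Cebpb, Cebpg, Cebpa, Cebpe and Cebpd for C/EBPβ with 50 kb on each side. The order was another with 10 kb, where Cebpa and Cebpg had 5 MAC C/EBPβ peaks each, Cebpb had 3, Cebpe had 2 and Cebpd had 1. The shares that follow are for 50 kb. At least as many MAC C/EBPβ peaks as at Cebpa were found at 20.9% of coding genes, as at Cebpe at 27.1% and as at Cebpd at 50.0%. Among genes no longer than Cebpg these shares were 11.7%, 17.0% and 36.4%. For MAC PU.1 the median coding gene had 7 peaks. A count of at least 21, as at Cebpb, was found at 5.97% of coding genes and of at least 17, as at Cebpa and Cebpe, at 12.7%. Among genes no longer than Cebpg, where the median was 5, these shares were 2.79% and 7.40%. Without replicates, neighbours in this order cannot be told apart from one another beyond the counts themselves.

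**Figure D4:**
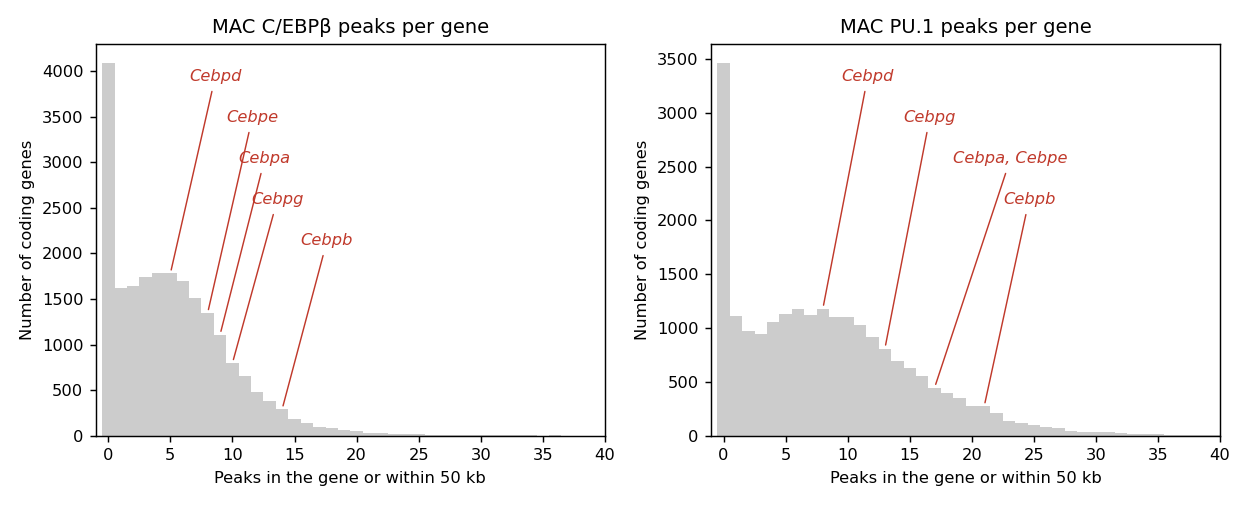
Number of coding genes (vertical axis) by the number of MAC C/EBPβ peaks (left) and MAC PU.1 peaks (right) in the gene or within 50 kb, drawn up to 40 peaks, with the members marked. Cebpd lies at the bulk of genes, with 5 and 8 peaks, and Cebpb furthest to the right, with 14 and 21.

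The sharing of macrophage peaks between both factors was compared with that over the whole lists. Of 44 MAC C/EBPβ peaks in the 5 loci, each counted once, 22 overlapped a MAC PU.1 peak (50.0%, exact Clopper-Pearson 95% interval 34.6 to 65.4, counting error only), and over the whole list the share was 42.5%. By gene these were 4 of 9 at Cebpa, 9 of 14 at Cebpb, 1 of 5 at Cebpd, 3 of 8 at Cebpe and 6 of 10 at Cebpg. Of 71 MAC PU.1 peaks, 22 overlapped MAC C/EBPβ (31.0%, 20.5 to 43.1), and 28.5% did over the list. The centres of the 22 shared pairs were 8 to 386 bp apart, with a median of 79.0 bp.

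The PU.1 and C/EBPβ peaks of HP were set against those of the same factor in MAC. All 8 HP PU.1 peaks in the loci overlapped a MAC PU.1 peak (interval 63.1 to 100), where 97.0% did over the whole list, and their centres were 0 to 41 bp apart. All 3 HP C/EBPβ peaks overlapped a MAC C/EBPβ peak by at least 1 bp (29.2 to 100), where 91.4% did over the list. Their centres were 5 and 24 bp apart at Cebpe and 307 bp apart at Cebpg, where the peaks overlapped only in part.

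TTGCNNAA was found in 20 of the 44 MAC C/EBPβ peaks (45.5%, 30.4 to 61.2) and in 41.9% of the whole list. It was found in 5 of 9 peaks at Cebpa, 5 of 14 at Cebpb, 3 of 5 at Cebpd, 4 of 8 at Cebpe and 3 of 10 at Cebpg. The other strings searched first gave 5 of the 44 peaks with TGATGNAA (11.4%, 3.79 to 24.6, and 12.8% of the list), 1 with TGACGNAA (2.27%, 0.0575 to 12.0, and 3.06%) and 9 with TGANTCA, the AP-1 string (20.5%, 9.80 to 35.3, and 23.3%). For PU.1 the letters searched first were GAGGAAG, and 31 of 71 MAC PU.1 peaks held them (43.7%, 31.9 to 56.0), against 45.0% of the list. With GGAAGT, chosen after that share and the sequences had been seen, it was 44 of 71 (62.0%, 49.7 to 73.2) against 67.6%. In HP, 6 of 8 PU.1 peaks held GAGGAAG (75.0%, 34.9 to 96.8), against 59.6% of the list. With either string each interval held the share of the whole list. In 300-base windows GAGGAAG occurred in 13.6% of promoters and 33.1% of all regions, and GGAAGT in 23.8% and 52.0%.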

How the data were processed

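The authors aligned ChIP-seq reads to GRCm38 (mm10) with Bowtie and called peaks against the input of the same cell population. The threshold of each list was chosen by eye, and each peak was set to a common width. Tool versions are not given in the sources used here. Technical sequencing runs of some samples had been combined. The deposited files give only where each peak begins and ends, 400 bp apart, with neither score nor count. Peak ends were checked against the GRCm38 chromosome lengths.

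Here, peaks were counted in RefSeq gene windows with 50 kb on each side, for all 21774 coding genes, and merged at 1 bp of overlap. A gene counted as called in a list if it had at least 1 peak. Samples were grouped by the factor and stage in their labels. With 1 list per group no test was made, and shares carry exact Clopper-Pearson 95% intervals. The members, lists of genes and windows were chosen with earlier results of these data known. Named were the members, regions in 3 or more lists, those nearest to a TSS and those with a peak before MAC, with neighbouring genes.

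Letter strings were searched on both strands. The 9 searched first were TTGCNNAA for C/EBP with a stricter form of it, GAGGAAG for PU.1, TGTGGTT for RUNX1, AGATAA for GATA factors, AATCNNNGC for GFI1B, TGACGNAA for CREB and ATF factors, TGATGNAA for C/EBP and ATF dimers, and TGANTCA for AP-1. A further 4 were added after the sequences and the first shares had been seen, because they matched there, and they support nothing. They were GGAAGT for ETS factors, TGACGC for CREB and ATF factors, TTGCGC for C/EBP and the CCAAT box. GAGGAAG is kept as the PU.1 result. RefSeq promoters matched 3 of the 5 members, Cebpa, Cebpb and Cebpg. Alternatives were other windows, peak centres, nearest coding TSS, overlap of 200 bp and other letters. Calculations used Python 3.11.15, NumPy 2.4.6, SciPy 1.17.1, Biopython 1.88 and Matplotlib 3.10.9, and were tested on simulated data. The sequence of 1 further region is not reported here.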

Additional observations from a re-analysis of the deposited data

How the results depend on the processing

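No paired analysis was possible because the labels give no replicate numbers and each group held 1 list. Among the alternative values, 64 stayed within 1.5 times the count reported, or within the interval of the share, and 32 moved. None was tested, and the cause was not tested beyond the width of the window itself. With 10 kb on each side, the peaks were 10 at Cebpa, 10 at Cebpb, 7 at Cebpd, 13 at Cebpe and 12 at Cebpg, and the regions were 7, 9, 5, 6 and 7. With 100 kb, Cebpa and Cebpb had peaks in 5 lists each, the peaks were 46 at Cebpa, 80 at Cebpb, 55 at Cebpe and 50 at Cebpg, and the regions were 52 at Cebpb, 19 at Cebpd, 37 at Cebpe and 36 at Cebpg. Taking peaks by their nearest coding TSS gave 62 peaks at Cebpb, 14 at Cebpe and 16 at Cebpg, and 14 regions at Cebpa, 7 at Cebpe and 9 at Cebpg. C/EBPβ at Cebpb in HP went from 0 to 2 peaks with 100 kb and to 2 by nearest TSS, and in MAC from 14 to 3 with 10 kb and 27 with 100 kb. The stricter C/EBP consensus was held by 20.5% of MAC C/EBPβ peaks in the loci and by 14.9% of the list. GGAAGT in place of GAGGAAG, added after seeing the data, moved the MAC PU.1 share from 43.7% to 62.0%, while that in HP was 75.0% with either. Merging at 200 bp, an overlap of 200 bp and peak centres changed none of these results by as much. The depth behind each peak is unknown, and an empty locus in a short list does not show that a factor was absent.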

Other observations

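The Cebpe region printed in the report is built of 2 similar units, which was noticed on reading the sequence and then measured. A local alignment of the window with itself paired bases 74 to 177 with bases 194 to 299, with 87 identical bases in 111 aligned columns (78.4%) and 12 gap columns. Each unit holds 1 TTGCAAAA and 1 AGATAA, and the C/EBP match nearest to the HP C/EBPβ centre (TTCTGCAA on the strand printed) lies at the start of the second unit.

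Genes chosen as known or possible partners or regulators of C/EBP proteins, or as related zipper genes, were looked at in the same windows. The list was Ddit3, Atf4, Atf5, Batf2, Trib1, Trib2, Nfil3, Dbp, Hlf and Tef. In MAC, 9 of the 10 had a C/EBPβ peak, against 81.2% of coding genes, with a median of 8.5 peaks against 9 over the members and 5 over all coding genes, and all 10 had a PU.1 peak, against 84.1%, with medians of 12, 17 and 7. In HP, 7 had a PU.1 peak, against 53.0% of coding genes, and 3 had a C/EBPβ peak, against 23.4%, which were Ddit3 with 3 peaks, Trib1 with 2 and Nfil3 with 2. Ddit3 encodes CHOP, a stress-induced partner of C/EBP proteins, and Trib1 encodes a pseudokinase known for the degradation of C/EBPα. Close to the Ddit3 TSS, C/EBPβ was centred at -308 bp in MES, -309 bp in HB, -311 bp in HP and -313 bp in MAC. None of the 10 had a peak of C/EBPβ in HE, GATA2 in HB, GATA1 or GATA2 in HP, or RUNX1 in MAC. GFI1B in HP was found at 2 of the 10 (19.0% of coding genes), RUNX1 in HP at 1 (12.4%) and ELK4 in MES at 2 (7.67%). C/EBPβ was found at 4 in MES (10.5%) and 3 in HB (6.84%). The list was chosen with earlier results known, and these counts were not tested.

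The coding genes on other chromosomes whose 14 counts were most like those of a member, by the summed absolute difference, were Agpat4 and Chrna1 (0) for Cebpa, followed by 24 genes at a difference of 1 of which Aagab is the first by name, and Arhgap18, Myo16 and Pde8a (0 each) for Cebpb. For Cebpd, 25 genes had the same counts, the first by name being 1700034J05Rik, 1810024B03Rik and Acat2. For Cebpg, 9 genes had a difference of 1, the first by name being Bcl7b, Cdh4 and Derl1. Cebpe had no such close match, and its nearest were 6 genes at a difference of 4 peaks, the first by name being Ap1m1, Atrnl1 and Aunip.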
